A study of Mus musculus with 12 samples.

Results

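Cationic amino acid transporters carry arginine, lysine and ornithine, and in part cystine, across the plasma membrane. The genes described are Slc7a1, Slc7a2, Slc7a6, Slc7a7, Slc7a9 and Slc3a1, 6 of the 24062 genes counted, chosen by name for what they transport. The choice used no measured value, but earlier results of these data were known when it was made. RNA-seq of polyA RNA was made from 12 mice, 1 library per mouse and 3 mice per group. The comparison asks how mRNA in tumor-bearing mouse livers and in liver cancer xenografts differed between diets. Mice had been fed a diet without tryptophan (Trp), the No-Trp diet, for 21 days, or a complete control diet for as long.

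The groups named MYC-ON livers were livers of FVB mice carrying LAP-tTA and TRE-MYC, in which a liver-specific promoter drives the activator of a MYC transgene that doxycycline keeps off. Doxycycline was withdrawn on the day of birth, so both diet groups had MYC on. Mice 101, 102 and 103 were the controls, and mice 105, 107 and 108 went without dietary Trp. The labels state an age of 45 days only for a comparison with wild-type males that is not analysed here. The xenografts were tumors of HCC53N, a cell line from 1 mouse liver cancer model with p53 knocked out and mutant NRAS in hepatocytes, grown under the skin of NOD SCID females, which lack T and B cells but keep other host cells. Mice 40, 41 and 43 were the controls, and mice 35, 36 and 37 went without dietary Trp. The labels also give these tumor cells the genotype FVB MYC ON. Tissue, host strain, sex, site and driver all differ between the livers and the xenografts and cannot be told apart.

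Arginine and lysine are positively charged and enter cells through several kinds of carrier. Slc7a1 encodes CAT1, the widely expressed uniporter of cationic amino acids, and Slc7a2 encodes CAT2, whose low-affinity splice form is the form known from hepatocytes. Slc7a6 and Slc7a7 encode y+LAT2 and y+LAT1, light chains that pair with the heavy chain Slc3a2 (4F2hc) and exchange a cationic amino acid for a neutral one with sodium. Slc7a9 encodes b0,+AT, which pairs with the heavy chain encoded by Slc3a1 (rBAT) to take up cystine and cationic amino acids, best known from the brush border of kidney and gut, where defects cause cystinuria.

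On GRCm38, all 6 are protein-coding genes and lie apart from each other. Slc7a1 spans chr5:148327410-148399904 on the minus strand, Slc7a2 chr8:40862396-40922308 on the plus strand, Slc7a6 chr8:106168857-106198706 on the plus strand, Slc7a7 chr14:54369442-54417780 on the minus strand, Slc7a9 chr7:35448796-35466036 on the plus strand and Slc3a1 chr17:85028376-85064236 on the plus strand. Counts cover whole genes, so the splice forms of Slc7a2 cannot be separated. The strand setting of the counting is not given in the sources used here, and 3 of the genes overlap a gene on the opposite strand. Slc7a2 shares 3252 bases of its span with Gm26584, Slc3a1 shares 767 with Prepl, and Slc7a7 shares 232 with Oxa1l, so reads from these stretches cannot be assigned with certainty.

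The promoters of Slc7a1, Slc7a6, Slc7a9 and Slc7a7 are shown, the 4 genes that were lower in every No-Trp liver than in any control liver, a choice made after their values were seen. The 250 bases before each first-listed start site follow from RefSeq (GRCm38.p6), 5′ to 3′ on the gene's strand. Capitals mark CG dinucleotides in Slc7a1, Slc7a6 and Slc7a9, and a match to the C/EBP-ATF response element in Slc7a7.
Slc7a1, chr5:148399905-148400154, minus strand: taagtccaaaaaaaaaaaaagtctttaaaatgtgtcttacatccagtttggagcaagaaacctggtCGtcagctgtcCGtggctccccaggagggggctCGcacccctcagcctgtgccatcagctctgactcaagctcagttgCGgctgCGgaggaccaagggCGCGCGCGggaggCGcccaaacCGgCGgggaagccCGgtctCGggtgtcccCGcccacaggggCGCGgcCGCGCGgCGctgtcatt
Slc7a6, chr8:106168604-106168853, plus strand: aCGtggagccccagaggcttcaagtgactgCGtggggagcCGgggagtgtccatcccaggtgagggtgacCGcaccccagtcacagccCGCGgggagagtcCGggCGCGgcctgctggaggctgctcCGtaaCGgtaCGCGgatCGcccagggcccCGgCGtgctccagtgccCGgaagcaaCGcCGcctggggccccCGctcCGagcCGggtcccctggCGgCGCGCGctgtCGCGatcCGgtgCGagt
Slc7a9, chr7:35448842-35449091, plus strand: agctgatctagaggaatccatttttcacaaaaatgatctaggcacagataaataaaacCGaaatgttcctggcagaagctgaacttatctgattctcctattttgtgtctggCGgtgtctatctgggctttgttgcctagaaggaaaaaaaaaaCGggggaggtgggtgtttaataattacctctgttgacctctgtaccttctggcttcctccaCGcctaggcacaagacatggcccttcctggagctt
Slc7a7, chr14:54417945-54418194, minus strand: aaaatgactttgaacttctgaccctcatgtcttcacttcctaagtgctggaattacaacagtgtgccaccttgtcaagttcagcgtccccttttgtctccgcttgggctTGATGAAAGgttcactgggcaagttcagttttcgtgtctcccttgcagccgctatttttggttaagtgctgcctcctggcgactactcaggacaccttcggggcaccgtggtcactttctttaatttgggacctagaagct
Across windows from 250 bases before to 50 after the start site, the 32851 promoters in the table held a median of 7 CG dinucleotides. The first-listed window of Slc7a1 held 27, more than 84.5% of all promoters, and that of Slc7a6 held 41, more than 96.5%. The second-listed windows of these genes held 7 and 42. The first-listed windows of Slc7a7, Slc7a9 and Slc3a1 held 9, 6 and 7. Motifs were searched on both strands in all 12 windows listed for 5 of the 6 genes (Slc7a2 was not matched). The E-box CACGTG, found in 7.15% of all promoters, and the HNF1 site, found in 0.399%, had no match in any of them. The response element TGATGNAAN, found in 3.95% of promoters, matched only in Slc7a7, as TGATGAAAG 141 bases before the start site and as TGATGCAAC across the start site itself, beginning at its last upstream base. A match in letters is a description and does not show that a factor binds.

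Reads counted on genes ranged from 14660963 to 26085349 per library, and resubmission is marked for 4 of them, control liver 101, No-Trp liver 108 and control xenografts 41 and 43. Hepatocyte markers such as Alb and Apob were detected in every library, with a summed level of 14950 to 46350 CPM (counts scaled to a common library size of 1e+06) in control livers, 64100 to 156000 in No-Trp livers and 580 to 2148 in the xenografts. Liver 107 stood apart from livers 105 and 108 in several of the genes below, and ribosomal Rn45s took 12.1% of the counts of control liver 101 against 0.261% to 2.22% in the other livers. The counts are of bulk tissue, in which fewer cells of a type and less RNA per cell cannot be told apart.

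The 6 genes made up a different mixture in each tissue. Per length, as CPM per kilobase of merged exons (RPKM), Slc7a2 averaged 26.1 in control livers, followed by Slc3a1 at 20.0, Slc7a1 at 17.0, Slc7a6 at 13.8, Slc7a7 at 10.3 and Slc7a9 at 2.67. Slc7a2, Slc3a1, Slc7a1 and Slc7a6 overlapped in their ranges over mice, so their order is not fixed by these data. By these lengths Slc7a7, at 9.23 to 11.2 RPKM, overlapped Slc7a6 and lay below every value of Slc7a2, Slc3a1 and Slc7a1. Slc7a9 lay below all the others. In control xenografts Slc7a6 stood highest at 14.6 RPKM, above Slc7a1 at 9.53 with no overlap between mice. Slc7a7 followed at 8.12 and overlapped Slc7a1, and Slc7a2 at 2.35, Slc3a1 at 0.375 and Slc7a9 were lower, each without overlap.

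In the No-Trp livers the order was dominated by Slc7a2, at a mean of 120.8 RPKM. Slc3a1 followed at 13.1 to 17.7, and Slc7a7 at 6.31, Slc7a1 at 5.32 and Slc7a6 at 4.49 overlapped one another. Slc7a2 took 21.1%, 35.3% and 29.7% of the summed RPKM of the 6 genes in control livers 101, 102 and 103. It took 76.8%, 83.5% and 77.5% in No-Trp livers 105, 107 and 108. The ratio of Slc7a2 to Slc7a1 by RPKM ranged from 0.954 to 2.27 in control livers and from 16.5 to 63.7 in the No-Trp livers, where liver 107 was the highest and liver 108 the lowest. In the No-Trp xenografts Slc7a1 and Slc7a6 overlapped at the top, at 20.8 and 19.4 RPKM, and Slc7a2 took 2.15% to 9.62% of the sum against 5.19% to 8.22% in control xenografts. These levels, ratios and shares depend on the exon lengths used. With the exons of all annotated transcripts Slc7a6 averaged 11.3 RPKM and Slc7a1 10.6 in control livers, and 15.9 and 13.0 in No-Trp xenografts. By the same lengths Slc7a7 averaged 6.45 and Slc7a1 5.93 in control xenografts, and Slc7a2 stayed highest in No-Trp livers at 114.6. All are descriptions and were not tested.

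**Figure D1:**
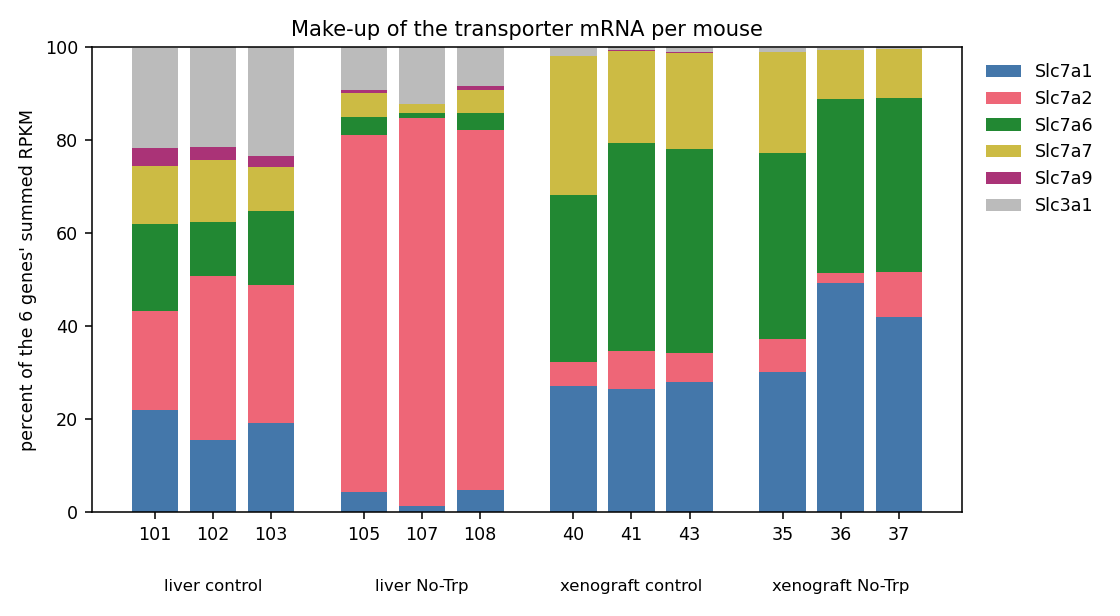
Stacked bars show, for each of the 12 mice (x axis, grouped by tissue and diet), the percent of the 6 genes' summed RPKM (y axis, 0 to 100) held by each gene. Slc7a2 holds 21.1% to 35.3% in control livers, 76.8% to 83.5% in No-Trp livers and under 10% in every xenograft, where Slc7a6 and Slc7a1 hold most.

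In MYC-ON livers, 2 of the 6 transporters passed the test against the control diet, Slc7a2 upward and Slc7a1 downward. Genes were called at an adjusted p up to 0.05 with an absolute log2 fold change from 1, and 16.5% of the 14122 genes tested were called, 9.28% higher and 7.27% lower. The groups did not overlap for 5 of the 6, of which 1 was higher and 4 lower, where 48.6% of all genes tested did not overlap, 23.6% higher and 25% lower. The median log2 difference of the 6 was -1.16, against -0.0031 over all genes tested.

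Slc7a2, the hepatocyte-type carrier, rose in the livers without dietary Trp. It stood at 136, 258 and 285 CPM in control livers 101, 102 and 103 and at 947, 1054 and 1138 CPM in No-Trp livers 105, 107 and 108. Every No-Trp liver was above every control liver. The log2 difference was 2.22 (SE 0.32), or 4.67-fold, with an adjusted p of 0.0144 by edgeR's quasi-likelihood test. With 1 liver left out at a time it ranged from 1.96 to 2.41 and was called in 5 of 6 fits, the exception being the fit without control liver 103 (adjusted p = 0.0833), in which 8 genes of all were called.

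Slc7a1, which encodes CAT1, fell in the same livers. It stood at 118, 94.6 and 153 CPM in the control livers and at 43.6, 13.7 and 57.3 CPM in the No-Trp livers, with no overlap. Liver 107 was the lowest of all. The log2 difference was -1.66 (SE 0.49), with an adjusted p of 0.0467, close to the threshold. Leaving out 1 liver at a time gave -2.07 to -1.27, and the call was lost without control liver 101 (adjusted p = 0.101), without control liver 103 (0.134) and without No-Trp liver 105 (0.107).

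Slc7a6 followed Slc7a1 across the livers and narrowly missed the threshold. The light chain stood at 52.9, 36.9 and 65.7 CPM in the control livers and at 20.8, 5.84 and 23.9 CPM in the No-Trp livers, again with 107 lowest and no overlap. Its log2 difference was -1.61 (SE 0.50, adjusted p = 0.0546). Without liver 107 the difference was smaller, -1.21, and passed the test (adjusted p = 0.0364), and it also passed without control liver 102 (0.0381).

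Slc7a9, the light chain for cystine uptake, was the least abundant of the 6 in liver. Its raw counts were 126, 84 and 146 in the control livers and 31, 2 and 32 in the No-Trp livers, where the value of liver 107 is too low for a level. In CPM these were 6.08, 4.73 and 5.83 against 1.77, 0.123 and 2.49. The log2 difference of -1.93 (SE 0.75) did not pass the test (adjusted p = 0.0960). Without liver 107 it was -1.38 with an adjusted p of 0.0467.

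Slc7a7 and Slc3a1 had smaller differences. Slc7a7, the light chain whose loss causes lysinuric protein intolerance, stood at 24.3, 29.5 and 27.6 CPM in control livers and 19.9, 7.69 and 22.2 CPM in No-Trp livers. The groups did not overlap, but the log2 difference was -0.70 (SE 0.37, adjusted p = 0.193), and -0.36 (adjusted p = 0.228) without liver 107. Slc3a1, the heavy chain that Slc7a9 needs, stood at 36.4, 41.4 and 58.5 CPM against 29.6, 40.1 and 32.3 CPM. These groups overlapped, and the log2 difference was -0.40 (SE 0.23, 95% interval -0.94 to 0.14, adjusted p = 0.226). The heavy chain stood at 13.1 to 17.7 RPKM in the No-Trp livers while its partner Slc7a9 stood at 0.0593 to 1.20 RPKM.

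**Figure D2:**
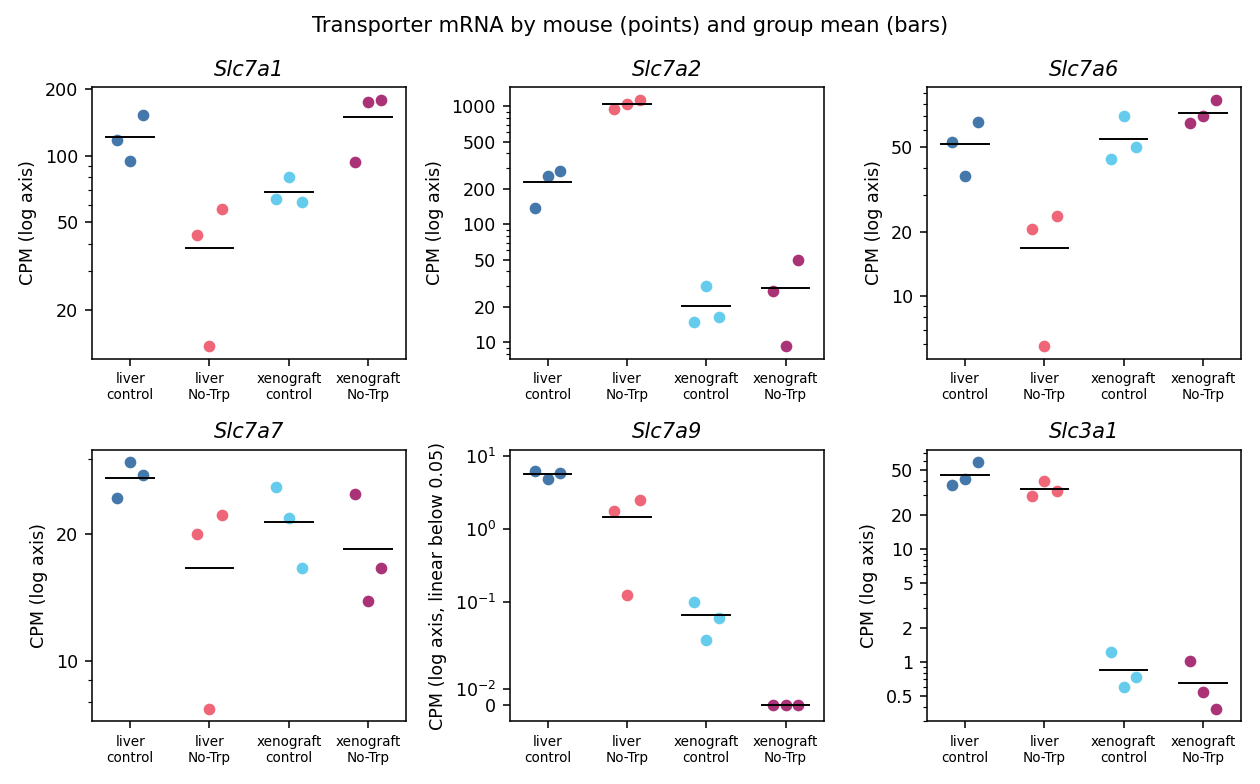
Points give each mouse's CPM on log axes (the Slc7a9 panel is linear below 0.05) for the 4 groups, and bars the mean of 3 mice. Slc7a2 is higher and Slc7a1, Slc7a6, Slc7a7 and Slc7a9 lower in every No-Trp liver than in any control liver, and Slc7a9 and Slc3a1 are near 0 in the xenografts.

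In the xenografts none of the 5 transporters tested was called between the diets, where 0.36% of the 14704 genes tested were, 0.245% higher and 0.116% lower. At an unadjusted p under 0.05, 1 of the 5 passed, Slc7a1, and DESeq2 called the same gene. DESeq2 called more genes of all than edgeR did in this comparison. The shares of all genes passing at that unadjusted p or called by DESeq2 are not given. These counts, and such counts of the other gene lists below, are therefore not read as results about the lists. The groups did not overlap for 1 of 5, higher on the No-Trp diet, against 22.6% of all genes tested, 10.8% higher and 11.8% lower. The median log2 difference of the 5 was 0.40.

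Slc7a1 stood at 63.9, 79.7 and 61.5 CPM in control xenografts 40, 41 and 43. It stood at 93.6, 176 and 180 CPM in No-Trp xenografts 35, 36 and 37, all above the controls, with xenograft 35 nearest to them. The log2 difference was 1.12 (SE 0.26, unadjusted p = 0.00208, adjusted p = 0.103). DESeq2 gave 1.13 with an adjusted p of 0.00365, and edgeR without xenograft 35 gave 1.38 with an adjusted p of 0.0342.

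Slc7a6, Slc7a2 and Slc7a7 overlapped between the diets. Slc7a6 stood at 43.9, 70.3 and 50.2 CPM in control xenografts 40, 41 and 43 and at 64.9, 69.7 and 83.6 CPM in No-Trp xenografts 35, 36 and 37 (log2 difference 0.40, SE 0.20, adjusted p = 0.359). Slc7a2 varied more among tumors, from 14.7 to 29.8 CPM on the control diet and from 9.24 to 49.6 CPM on the No-Trp diet. Its log2 difference of 0.48 (95% interval -0.91 to 1.87) turned to -0.18 without xenograft 37. Slc7a7 ranged from 16.6 to 25.7 CPM and from 13.9 to 24.8 CPM (log2 difference -0.23, SE 0.26, adjusted p = 0.701).

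The cystine carrier was almost unread in the tumors. Slc7a9 had 2, 1 and 1 counts in control xenografts 40, 41 and 43 and 0 counts in each No-Trp xenograft, so no fold between the diets is given. Slc3a1 had 25, 15 and 12 counts against 28, 16 and 9, a log2 difference of -0.41 with a 95% interval of -1.67 to 0.86. That interval holds differences of either sign.

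Whether the diet difference itself differed between xenografts and livers was tested in 1 fit over the 12 libraries. Slc7a1 and Slc7a6 passed, both with a higher diet difference in the xenografts, where 12.7% of the 15472 genes tested passed, 6.7% in that direction and 6.01% in the other. For Slc7a1 the difference between the diet effects was 2.80 (SE 0.60, adjusted p = 0.0148) on the log2 scale. It stayed called with any of the 12 mice left out, at 2.41 to 3.21 with adjusted p-values up to 0.0398. For Slc7a6 it was 2.03 (SE 0.57, adjusted p = 0.0358). It was called in 5 of the 12 fits that left out 1 mouse, losing the call without liver 101 or 103 or without xenograft 35, 36, 37, 40 or 43, with an adjusted p of at most 0.0874.

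For Slc7a2 the difference ran the other way, -1.72 (95% interval -3.24 to -0.20), and missed the threshold by edgeR (adjusted p = 0.112), while DESeq2 called it at -1.80 (adjusted p = 0.0422). By edgeR without xenograft 37 it was -2.38 with an adjusted p of 0.0422. Slc7a7 at 0.50 (adjusted p = 0.519) and Slc3a1 at 0.03 (95% interval -1.17 to 1.23) did not pass. Slc7a9 is not read here because its xenograft counts are at or under the floor of 3 counts. This test uses the same libraries as both diet comparisons and is not independent of them.

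**Figure D3:**
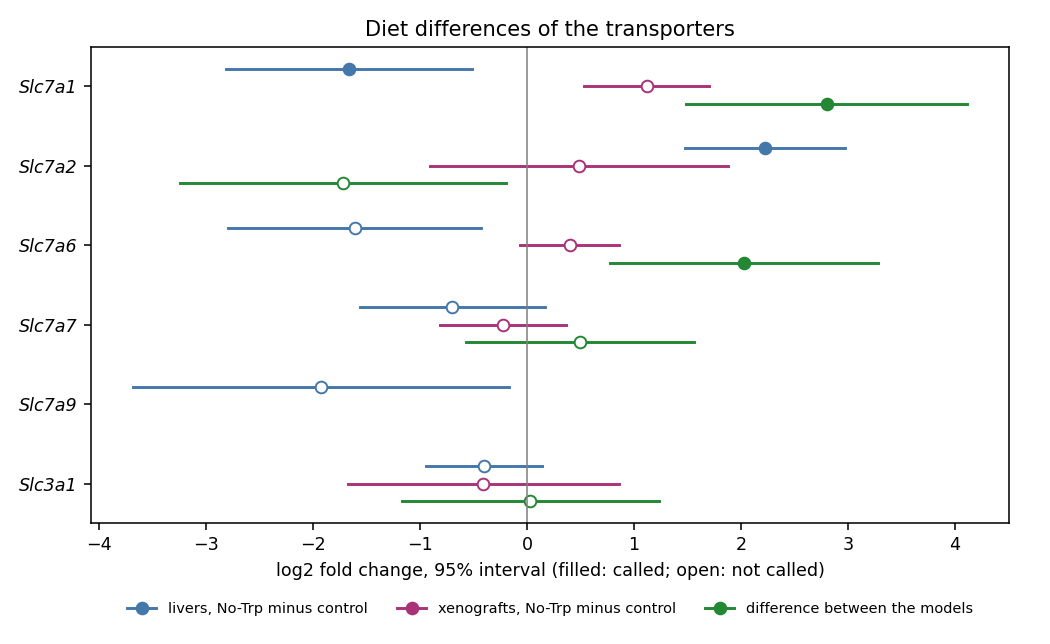
The x axis gives the log2 fold change with its 95% interval for each gene (y axis), for the diet in livers, the diet in xenografts and the difference between the models (xenografts minus livers); filled points were called. The liver and xenograft intervals of Slc7a1 lie on opposite sides of 0, and the difference between the models is called for Slc7a1 (2.80) and Slc7a6 (2.03).

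Set against control livers, control xenografts held less mRNA for Slc7a2 and Slc3a1 by the test. Slc7a9 also passed it, but is read from its counts alone because every xenograft lay under the floor of 3 counts. Across the 15472 genes tested 43.5% were called in this comparison, 23.3% higher and 20.2% lower in xenografts. Slc7a2 was lower by a log2 difference of -3.47 (SE 0.54, adjusted p = 0.000188) and Slc3a1 by -5.73 (SE 0.39, adjusted p = 2.12e-07). Slc7a9 had 356 counts over the 3 control livers and 4 over the 3 control xenografts. That is an 86.7-fold higher level in livers, with an exact 95% interval of 33.6 to 320 for counting error only. Slc7a1 (log2 difference -0.83, adjusted p = 0.106), Slc7a7 (-0.34, adjusted p = 0.413) and Slc7a6 (0.08, 95% interval -0.79 to 0.95) were not called.

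On the No-Trp diet Slc7a1, Slc7a6, Slc7a2 and Slc3a1 differed between the models, where 43.7% of genes were called, 24.5% higher and 19.1% lower in xenografts. Slc7a9 also passed the test, but with 0 counts in every No-Trp xenograft it is read only as a bound from its counts. Slc7a1 (log2 difference 1.97, SE 0.43, adjusted p = 0.00206) and Slc7a6 (2.11, SE 0.42, adjusted p = 0.00103) were higher in the xenografts. Slc7a2 (-5.19, SE 0.58, adjusted p = 1.44e-05) and Slc3a1 (-5.70, SE 0.39, adjusted p = 1.96e-07) were lower. Slc7a9 had 65 counts over the livers and 0 over the xenografts, at least 37.7-fold higher in livers against a floor of 3 counts over the group. Slc7a7 stood at a log2 difference of 0.15 (95% interval -0.60 to 0.91), which also holds 0.

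Markers of other cells and states moved with several of these values. The summed level of 8 proliferation markers, among them Mki67 and Top2a, was 1552 to 1727 CPM in control livers and 521, 173 and 551 CPM in No-Trp livers 105, 107 and 108, and 7 of 8 were called lower. In the xenografts it was 723 to 767 CPM on the control diet and 837 to 1089 CPM on the No-Trp diet, with 0 of 8 called (4 at an unadjusted p under 0.05 by edgeR, 0 by DESeq2), and the difference between the models was called for 8 of 8. Liver 107 was thus lowest both in these markers and in Slc7a1, Slc7a6, Slc7a7 and Slc7a9. All 10 hepatocyte markers had a positive difference in the No-Trp livers and 5 were called, beside the rise of Slc7a2. Erythroid markers summed to 48.9 to 536 CPM in control livers and 7.27 to 19.6 CPM in No-Trp livers, with 4 of 4 called lower. Adipocyte markers summed to 2.80 to 5.07 CPM in control xenografts and 67.5 to 161 CPM in No-Trp xenografts, with 3 of 4 called higher. Slc7a1 was higher there without being called. In livers, where Slc7a1 fell, they summed to 2.99 to 4.90 CPM on the control diet and 13.0 to 59.6 CPM on the No-Trp diet. The 1 adipocyte gene tested in livers, Cidec, was called higher. Of all genes tested, 16.5% were called in livers, 0.36% in xenografts and 12.7% for the difference between the models. The part of all these markers in the transporter differences was not tested.

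**Figure D4:**
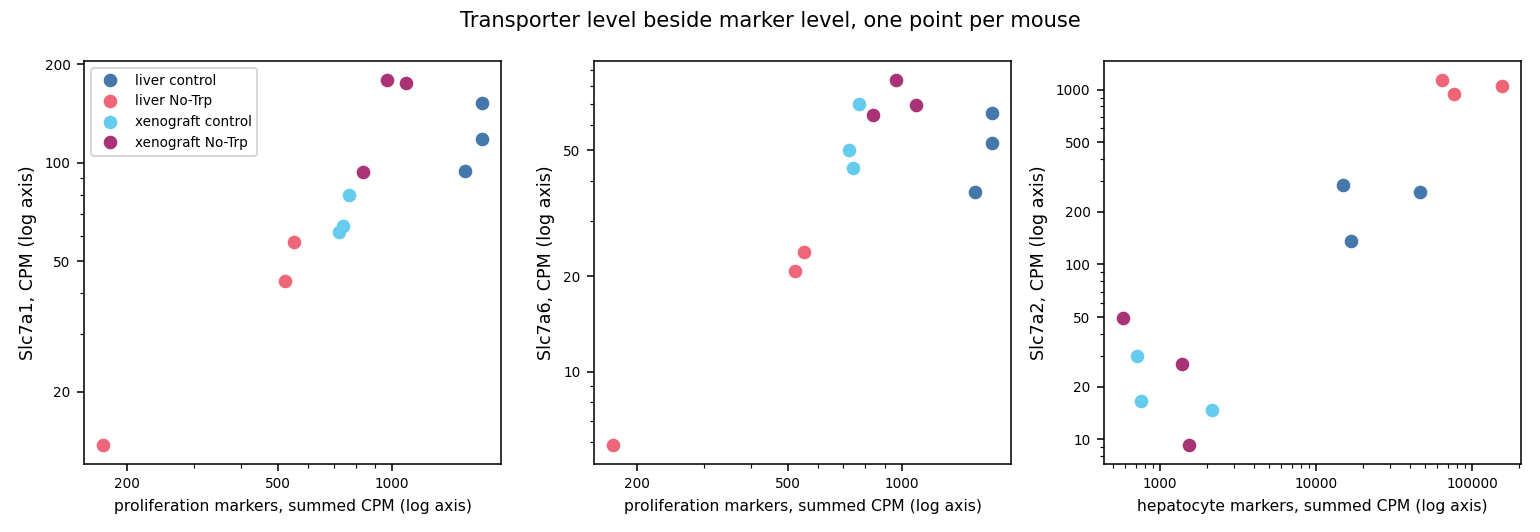
Each point is 1 mouse. The x axes give the summed CPM of 8 proliferation markers (left and middle) or 10 hepatocyte markers (right), the y axes the CPM of Slc7a1, Slc7a6 and Slc7a2, all on log axes. Liver 107 lies lowest in proliferation markers (173 CPM) and in Slc7a1 and Slc7a6, and the No-Trp livers lie highest in hepatocyte markers and Slc7a2.

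Slc7a7 is known from macrophages as well as epithelia. The 10 macrophage markers summed to 641 to 999 CPM in control livers and to 1062, 493 and 1071 CPM in No-Trp livers 105, 107 and 108, with 0 of 10 called by edgeR or DESeq2 (2 at an unadjusted p under 0.05). Liver 107 was the lowest in these markers and in Slc7a7. In the xenografts they summed to 400 to 537 CPM on the control diet and 360 to 567 CPM on the No-Trp diet. The 5 kidney and gut brush border markers, the tissues in which Slc7a9 and Slc3a1 are best known, summed to 4.62 to 16.4 CPM in control livers and 2.95 to 3.43 CPM in No-Trp livers. In the xenografts Vil1 and Cubn carried the sum of 32.4 to 109 CPM, with means of 39.5 and 16.9 CPM on the control diet and 72.2 and 19.1 CPM on the No-Trp diet. There Lrp2, Slc34a1 and Slc5a2 stood at 0 to 0.933 CPM, and Slc7a9 and Slc3a1 were near 0 as well.

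Of 14 related transporters, 10 passed the filter on low counts in livers, and 2 of them rose, Slc25a15 and Slc66a1. Of all genes tested in livers, 9.28% were called higher and 7.27% lower. With so few genes the count is not read as a result about the list. Slc25a15, the mitochondrial ornithine carrier of the urea cycle, rose by a log2 difference of 1.65 (SE 0.21, adjusted p = 0.0136), from a mean of 181 ± 36.2 CPM (SD, n = 3) to 563 ± 46.6 CPM. Slc66a1, the lysosomal exporter of cationic amino acids listed as Pqlc2, rose by 1.40 (SE 0.30, adjusted p = 0.0239). Ctns, the lysosomal cystine exporter, had a difference of 0.75, under the fold threshold, with an adjusted p of 0.0465. Slc3a2, the heavy chain of Slc7a6 and Slc7a7, had a difference of -0.26 (SE 0.25, adjusted p = 0.473), from 153 ± 11.3 to 127 ± 45.5 CPM.

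The other 6 related transporters were not called in livers. Slc7a3, the third CAT, had a log2 difference of -0.77 (adjusted p = 0.478) and its orphan relative Slc7a4 0.43 (0.375). The cystine-glutamate exchanger Slc7a11, at 1.07 CPM on average in control livers, had 0.94 (0.417). The neutral amino acid carrier Slc6a19 had -0.42 (0.700), the lysosomal arginine sensor Slc38a9 0.03 (0.903) and the mitochondrial basic amino acid carrier Slc25a29 0.64 (0.288). The median over the 10 was 0.54.

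In xenografts 0 of 9 related transporters were called by edgeR, 1 had an unadjusted p under 0.05 and DESeq2 called 1, Slc7a11. The largest positive log2 differences were those of Slc7a3, 1.70 (SE 1.06, adjusted p = 0.471), and of Slc7a11, 1.37 (SE 0.43, adjusted p = 0.192). Slc7a3 ranged from 5.95 to 66.2 CPM among No-Trp tumors. The groups did not overlap for Slc7a11 and Slc25a15, both higher on the No-Trp diet, or for Ctns, which was lower. Of all genes tested, 22.6% did not overlap. Slc25a29 had 0.41, Slc3a2 0.38 (adjusted p = 0.418), Slc25a15 0.38, Slc66a1 -0.06, Slc38a9 -0.21, Ctns -0.36 and Slc7a4 -0.53. The difference between the models was called for 3 of 10, where 6.01% of all genes tested were called lower and 6.7% higher in xenografts. The 3 were all lower: Slc66a1 (-1.43, adjusted p = 0.0383), Slc25a15 (-1.24, 0.00992) and Ctns (-1.08, 0.0284).

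Genes of arginine, lysine and cysteine metabolism were higher in the No-Trp livers where they were called, with 0 called lower. Of all genes tested there, 9.28% were called higher and 7.27% lower, and the lists are too short for their counts to be read against these shares. Of 13 arginine genes tested 3 rose: Arg1, the arginase of the urea cycle, by a log2 difference of 2.90 (SE 0.39, adjusted p = 0.0138), the endothelial nitric oxide synthase Nos3 by 1.36 (0.0254) and the antizyme inhibitor Azin2, listed as Adc, by 1.32 (0.0310). Markers of endothelial cells, the cells from which Nos3 is best known, summed to 89.7 to 182 CPM in control livers and 195 to 343 CPM in No-Trp livers, with 2 of 6 called higher and 5 of 6 positive, and their part in the rise of Nos3 was not tested. Of 7 lysine enzymes 3 rose: Hykk by 2.44 (0.0286), Aass, the first enzyme of lysine breakdown, by 2.35 (0.0286) and Gcdh by 1.20 (0.0292). Of 9 cysteine and glutathione enzymes 4 rose, led by the cysteine dioxygenase Cdo1 at 3.15 (SE 0.58, adjusted p = 0.0196), Got1 by 3.73-fold (0.0168) and the glutathione synthesis enzyme Gclc at 1.56 (0.0236). The medians of the lists were 0.87, 1.20 and 0.99. Among the 13 arginine genes 10 had a positive difference and 3 a negative one, none of the latter called. One of the latter was Odc1, at 340 to 512 CPM in control livers and 152 to 256 CPM in No-Trp livers. Ass1, a urea cycle enzyme abundant in liver, was listed at 0 to 5 counts in every library, so a count near 0 in these data does not by itself show a low mRNA level.

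Of 3 arginine sensing genes tested 0 were called in livers by edgeR or DESeq2, and 0 had an unadjusted p under 0.05. Of 11 genes of the amino acid response, which cells switch on when uncharged tRNA builds up, 3 rose by edgeR, where 9.28% of all genes tested were called higher. They were Vldlr by 3.42 (SE 0.36, adjusted p = 0.0108), Trib3 by 2.50 (0.0357) and Sesn2 by 1.30 (0.0178). Atf4, the factor that drives that response, had a difference of -0.45 (adjusted p = 0.213). The list did not move one way, with 4 of 11 positive and 7 of 11 negative. DESeq2 called 5, the same 3 and the serine synthesis enzymes Phgdh and Psat1, both lower. For these edgeR gave -1.70 (adjusted p = 0.101) and -1.37 (adjusted p = 0.139). The summed level of the 11 genes was 1499 to 2458 CPM in control livers and 526 to 1446 CPM in No-Trp livers, without overlap. Phgdh and Psat1 carried most of that sum, with means of 713 and 762 CPM in control livers. Vldlr, Trib3 and Sesn2, which rose, averaged 5.86, 10.9 and 12.3 CPM there and weigh little in it, so the sum is not read as the level of the response. In xenografts edgeR called 0 genes in each of the 5 lists of metabolism, sensing and response genes. At an unadjusted p under 0.05 there were 2 of 13 arginine, 0 of 7 lysine and 3 of 9 cysteine genes, 1 of 3 sensing genes and 5 of 11 response genes. DESeq2 called Cdo1 and 4 response genes, Asns, Chac1, Sesn2 and Trib3, all higher. The amino acid response list stood at a median of 0.47 there, with 7 of 11 positive.

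**Figure D5:**
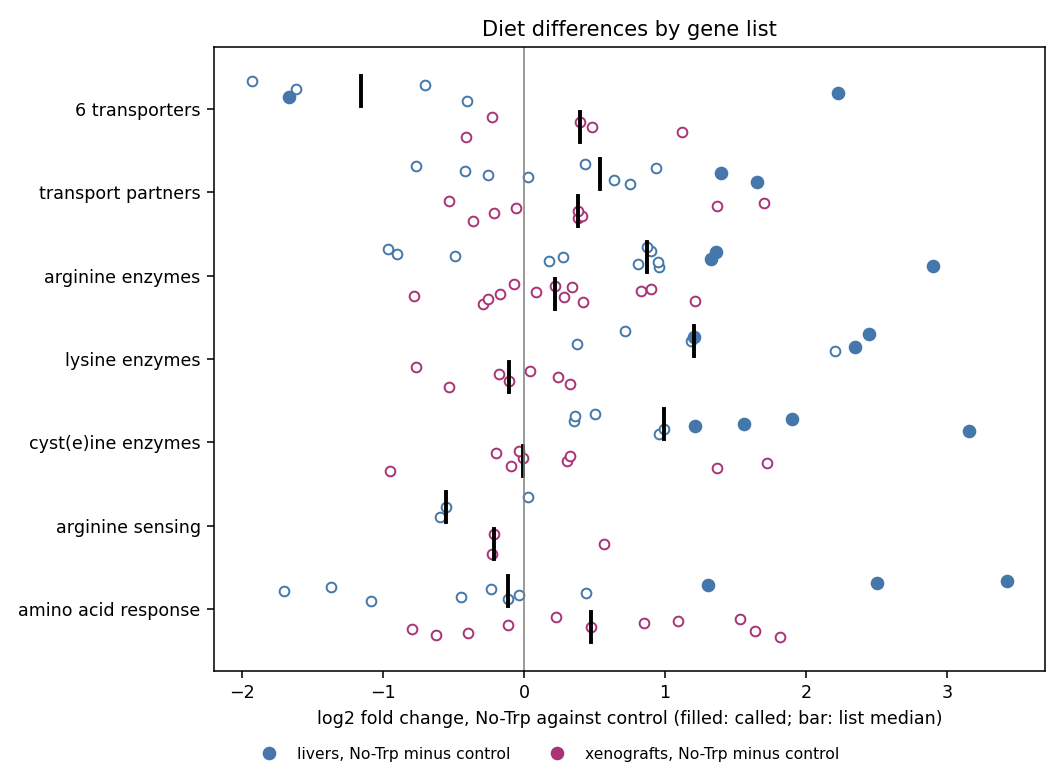
Each point is a gene's log2 fold change between the diets (x axis) in livers or xenografts, by list (y axis); filled points were called and bars mark list medians. Called genes appear only in livers, where the lysine and cysteine lists have medians of 1.20 and 0.99.

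The genes with the most similar levels were ranked by the lower of 2 values of Pearson's r, over the 6 livers and over the 6 xenografts, among 9862 genes for most members. The points share libraries and diet groups. Picking the 3 highest of so many candidates by itself favours a high r, so these are descriptions. Slc7a1 was most like Cdca2 (0.991), Cenpe (0.977) and Gart (0.974), of which Cdca2 and Cenpe act in mitosis and Gart in purine synthesis. Slc7a6 was most like Actr3 (0.969), Mmachc (0.968) and Nol9 (0.965), and Slc7a2 most like Pdk4 (0.956), a fasting-induced kinase of pyruvate use, Copb2 (0.955) and Plxnc1 (0.945). Slc7a7 was most like 5330417C22Rik (0.959), Rac2 (0.892), a GTPase of blood cells, and Ddah1 (0.888). Slc3a1 had no gene above 0.762, with Gm7694 (0.762), Rnf145 (0.741) and Hnrnph2 (0.730) the nearest. Slc7a9, over livers alone, with liver 107 far below the others, was most like Spc25, H19 and Trnt1 (0.998 to 1.00).

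Among themselves, Slc7a1 and Slc7a6 had an r of 0.997 over the 6 livers and 0.812 over the 6 xenografts. Slc7a7 followed Slc7a1 in livers (0.935) but had an r of -0.635 with it in xenografts. Slc7a2 ran against Slc7a1 in livers (-0.771) and had an r of 0.161 with it in xenografts. Slc7a9 and its heavy chain Slc3a1 had an r of 0.196 in livers.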

How the data were processed

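RNA-seq libraries from 12 mice were used, 1 per mouse, in 4 groups of 3. The authors trimmed reads with Trim Galore, aligned them to mm10 with STAR (2.7.2b), handled alignments with SAMtools (1.9) and counted reads per gene with HTSeq. The deposited values are raw counts for 24062 gene symbols. The strand setting is not given in the sources used here. Reads left uncounted (24.7% to 39.4% per library) were kept out of library sizes. Groups came from the labels. Nothing says that mice were processed apart, so p-values measure the spread between these samples.

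Counts were tested with edgeR (4.0.16, R 4.3.3) quasi-likelihood fits, TMM factors, filterByExpr and Benjamini-Hochberg adjustment over all genes tested, on 6 libraries per diet comparison and on 12 for comparisons between models. Calls needed an adjusted p of at most 0.05 and an absolute log2 fold change of at least 1. CPM used TMM library sizes over the 12 libraries, and RPKM the merged coding-transcript exons of GENCODE M21. DESeq2 (1.42.0), other scalings and filters, a resubmission covariate and leaving out each mouse were the alternatives. The fits were tested on simulated data. A counting interval or floor of 3 counts covers counting error only. The members and gene lists were chosen with earlier results of these data known. Named were all 6 members, the related transporters that passed the filter, up to 3 called genes with the largest difference per other list, and the 3 genes most like each member (mean count of at least 100). Atf4, Ass1, Odc1, Phgdh, Psat1 and single markers were added after their values were seen.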

Additional observations from a re-analysis of the deposited data

Results flagged for a closer look

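For 2 of the 6 transporters the diet difference in xenografts differed from that in livers by the test of the difference itself. For Slc7a1 it was higher in xenografts by 2.80 on the log2 scale (adjusted p = 0.0148), and for Slc7a6 by 2.03 (adjusted p = 0.0358). With 1 mouse left out at a time, Slc7a1 stayed called in 12 of 12 fits and Slc7a6 in 5 of 12. Slc7a6 was not called between the diets in livers or in xenografts alone. Of all 15472 genes tested, 12.7% passed that test, 6.7% in this direction. In livers every No-Trp mouse was below every control mouse for both genes, and in xenografts every No-Trp tumor was above every control tumor for Slc7a1 alone. Over all genes tested, 25% lay lower without overlap in livers and 10.8% higher without overlap in xenografts. The summed proliferation markers differed in the same direction between the models, and their part in these values was not tested. Tissue, host, sex, site and driver cannot be told apart.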

How the results depend on the processing

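Over 456 recomputed values of the members, 417 kept their direction and their side of the threshold, 14 lost and 10 gained a call, and 15 changed sign. In livers the number of members called (2) was 1 with library totals, without a filter on low counts or with the resubmission mark as a covariate, 4 with DESeq2, and 0 to 4 with 1 mouse left out, 0 without control liver 103 and 4 without liver 107. Slc7a1 missed the threshold in the first 3 of these, with adjusted p-values of 0.0565, 0.0704 and 0.0532. In xenografts (0 called) it was 1 with DESeq2 and 0 to 1 with 1 mouse left out. The number called for the difference between the models (2) was 3 with DESeq2, which added Slc7a2, and 1 to 2 with 1 mouse left out. Between models it went from 3 to 1 on the control diet, and from 5 to 3 on the No-Trp diet, with at least 10 counts in every library, a filter that removes Slc7a9 and Slc3a1. The 3 and the 5 include Slc7a9, whose xenograft counts are too low for its call to be read. Signs turned for values near 0: Slc3a1 in the difference between models (-0.063 with RLE factors, -0.24 with the resubmission covariate, -0.065 with DESeq2, -0.45 to 0.40 with 1 mouse left out), Slc7a6 between models on the control diet (-0.10 with the covariate, -0.15 to 0.29 with 1 mouse left out), Slc7a7 between models on the No-Trp diet (-0.22 to 0.41) and Slc7a2 between diets in xenografts (-0.18 to 0.91). The cause was not tested. Over all genes, calls ranged from 8 to 3207 in livers and from 9 to 78 in xenografts with 1 mouse left out, and DESeq2 called 380 in xenografts against 53. For the difference between the models they ranged from 916 to 2571. The main fits called 16.5% of genes in livers, 0.36% in xenografts and 12.7% for the difference between the models. Shares over all genes are not given for each setting, so the member counts by setting are not read as a result about the transporters. No paired analysis was possible because the groups share no animal numbers. Counts were low for Slc7a9 in all groups but the control livers, and for Slc3a1 in xenografts.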
